A study of Homo sapiens with 6 samples.

Results

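Reproducible MYT1L regions that lie inside protein-coding genes shorter than 200 kb, away from the ends of every gene, numbered 1380. They come from CUT&RUN peak lists of H1 cells, a human embryonic stem cell line, sampled at day 30. An antibody to MYT1L was used in 4 libraries, and nonspecific IgG served as control in 2. In CUT&RUN, a nuclease tethered by the antibody cuts out the DNA around the bound protein, and the released fragments are sequenced. The series describes the cells as cortical interneurons derived from the stem cells, while the sample labels give the starting cell type; all 6 libraries are labelled wild type. Peak lists hold no expression values, so the cell type could not be checked against marker genes. Nothing in the labels says whether replicates came from separate differentiations, and their spread may be technical.

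Peaks of the 4 MYT1L lists that shared at least 1 bp were joined into 49028 regions on chromosomes 1 to 22, X and Y. Regions with peaks from 3 or 4 libraries and no IgG peak on them were kept, which left 11091. Of these, 1380 (12.4%) overlapped a protein-coding gene body, lay over 1000 bp from every protein-coding gene end, and had no overlapped gene of 200 kb or more. The others were 6723 regions at gene ends, 636 inside long genes and 2352 outside protein-coding genes. The set was thus selected on the presence of deposited peaks and on gene position; fold and width were not used directly, but only peaks past the caller's threshold enter. Coordinates are those of GRCh38, counted from 1.

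MYT1L is a zinc-finger transcription factor of neurons that is known mainly as a repressor of programmes of other cell types. Its family recognises a short core sequence, AAGTT. Transcription of many genes can begin at more than 1 place, and an alternative promoter can lie deep inside the longest form of its own gene. Promoters that are active in many tissues are often rich in CpG, the C-G dinucleotide that is rare in the rest of the genome.

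The windows below show sequences at some internal start sites with and without a region. Among the 1318 regions on chromosomes analysed for starts, 459 (34.8%, 95% Wilson interval 32.3% to 37.4%) overlapped a window from 250 bases before to 50 bases after a RefSeq start site (GRCh38.p14) of a protein-coding or lncRNA gene. The sequences are the 150 bases before the start, 5′ to 3′ on the gene's strand, for the 6 such regions with the highest mean fold among those found in all 4 libraries with a start of their host gene. Capitals mark CpG.
GCA, chr2:162343982-162344131, + strand: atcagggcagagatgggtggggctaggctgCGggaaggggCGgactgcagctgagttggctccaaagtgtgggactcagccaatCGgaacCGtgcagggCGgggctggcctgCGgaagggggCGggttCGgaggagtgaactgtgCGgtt
PCNA, chr20:5119959-5120108, - strand: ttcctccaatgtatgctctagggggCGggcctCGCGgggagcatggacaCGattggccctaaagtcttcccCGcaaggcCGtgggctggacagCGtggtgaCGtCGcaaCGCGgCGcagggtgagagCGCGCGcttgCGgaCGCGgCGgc
MTHFD2L, chr4:74157968-74158117, + strand: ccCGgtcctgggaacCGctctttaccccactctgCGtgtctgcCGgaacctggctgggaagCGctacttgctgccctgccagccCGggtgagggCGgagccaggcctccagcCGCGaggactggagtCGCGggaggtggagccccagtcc
PTBP3, chr9:112333027-112333176, - strand: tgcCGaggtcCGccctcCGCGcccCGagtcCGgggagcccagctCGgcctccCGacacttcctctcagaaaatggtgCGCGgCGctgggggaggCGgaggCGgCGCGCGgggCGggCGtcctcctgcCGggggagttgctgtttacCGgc
SLC4A8, chr12:51424681-51424830, + strand: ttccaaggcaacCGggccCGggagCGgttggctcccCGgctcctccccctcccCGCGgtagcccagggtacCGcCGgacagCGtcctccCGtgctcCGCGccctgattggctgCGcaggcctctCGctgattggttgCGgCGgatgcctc
LIN28B, chr6:104940815-104940964, + strand: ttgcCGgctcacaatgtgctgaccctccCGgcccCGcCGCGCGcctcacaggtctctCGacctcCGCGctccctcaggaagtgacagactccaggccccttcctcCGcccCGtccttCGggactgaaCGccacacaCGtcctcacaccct
For contrast, MTHFD2L and LIN28B each have another internal start with no region in any library.
MTHFD2L, chr4:74123123-74123272, + strand: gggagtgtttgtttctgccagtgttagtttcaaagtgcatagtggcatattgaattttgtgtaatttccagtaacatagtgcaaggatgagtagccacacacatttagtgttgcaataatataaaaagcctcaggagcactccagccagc
LIN28B, chr6:104956957-104957106, + strand: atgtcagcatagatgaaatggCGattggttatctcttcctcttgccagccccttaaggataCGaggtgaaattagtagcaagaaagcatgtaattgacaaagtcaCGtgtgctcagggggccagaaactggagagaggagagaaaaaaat
The 6 sequences with a region held 9, 19, 11, 20, 16 and 14 CpG, and the 2 without held 0 and 3. These sequences were chosen after their values were seen.

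Starts on chromosome 8, where 62 of the regions lay, were not analysed here. On the other chromosomes the contrast in CpG held across internal starts. Protein-coding start windows of 300 bases that lay inside shorter genes, over 1000 bp from a gene end, numbered 3783. Of these, 571 (15.1%) overlapped a region of the set. Any reproducible region without IgG peak lay on 691 (18.3%), and a region of any MYT1L library on 1374. Windows with only such other regions are left out of the next contrast. The median of the 571 was 30 CpG (quartiles 23 and 37) and 69.3% G or C. The 2409 windows with no region in any MYT1L library had a median of 5 CpG (quartiles 2 and 10) and 52.3% G or C. At least 10 CpG were present in 98.2% of the windows with a region, against 27.9% of those without. Read the other way, a region of the set lay on 3 of 1109 windows with 0 to 4 CpG and on 7 of 701 with 5 to 9. It lay on 78 of 651 windows (11.98%) with 10 to 19 CpG, on 187 of 573 (32.6%) with 20 to 29 and on 296 of 749 (39.5%) with 30 or more. Starts of lncRNA genes inside these bodies showed the same composition. The median was 31 CpG in the 124 windows with a region of the set (6.37% of 1947). It was 5 in the 1626 with no region in any library. Windows of neighbouring starts overlap and are not independent, so no test was made.

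**Figure D1:**
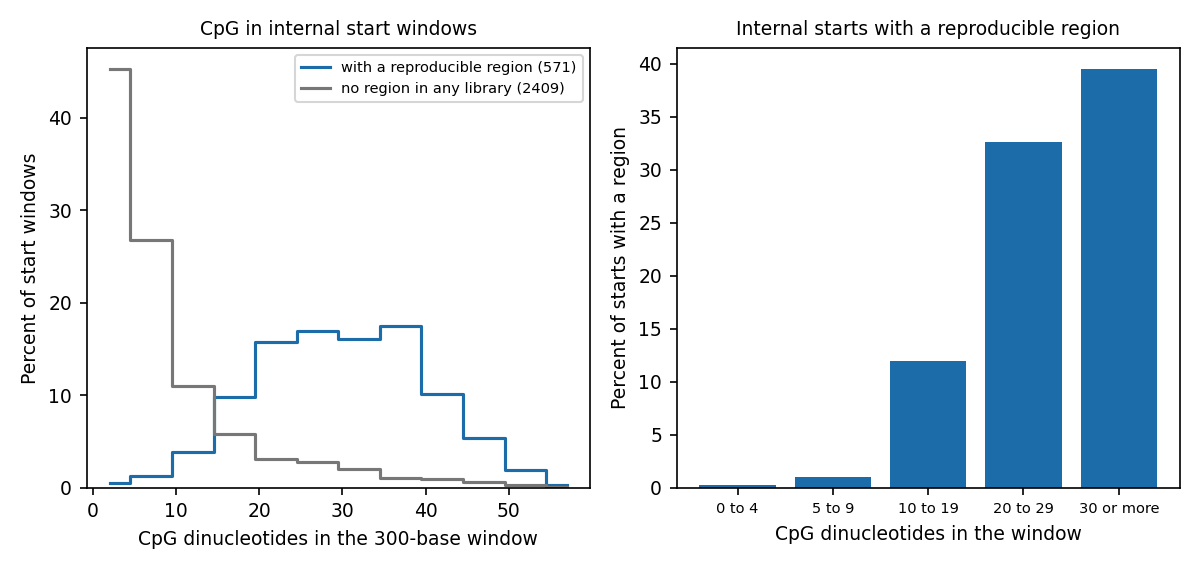
CpG dinucleotides in the 300-base windows of internal protein-coding starts. Left, percent of windows per class of 5 CpG. The 571 windows have a region of the set, and the 2409 have no region in any library. Right, percent of all 3783 windows that carried a region of the set, by CpG number. It is 0.271% at 0 to 4 CpG and 39.5% at 30 or more. In the panels, a reproducible region means a region of the set.

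Short sequence motifs differed along with composition. On either strand, the MYT1-family core AAGTT was in 16.6% of the 571 protein-coding windows with a region, in 41.1% of the 2409 without and in 34.1% of all 34912 listed start windows. The longer form AAAGTTT was in 1.23%, 4.73% and 4.29% of them. GGGCGG, the GC box bound by SP and KLF factors, was in 77.6% of the windows with a region, 26.1% of those without and 44.9% of all. CCGGAAG, a site of ETS factors, was in 16.3%, 3.57% and 10.2%, and TGCGCA, the core of NRF1 sites, in 12.8%, 2.62% and 8.20%. TATAAA showed the opposite order, at 1.93%, 14.5% and 11.6%. CCAAT differed little, at 37.8%, 31.4% and 34.6%, and the E-box CACGTG was in 8.06%, 5.40% and 7.23%. AAGTT is contained in AAAGTTT. Windows with a region hold more G and C, which bears on how often A- and T-rich motifs can occur. No count matched for composition was made, so a difference beyond composition was not tested. At gene ends, the 6886 protein-coding start windows with a reproducible region had similar values, with a median of 29 CpG, 20.7% with AAGTT and 78.8% with GGGCGG.

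About 1 peak in 3 of the set had its summit near a listed start, in every MYT1L library. Within 500 bp of a start lay 34.6%, 32.4%, 37.4% and 35.1% of the set's peaks in replicates 1 to 4. For regions on a start window, which lie near a start by choice, the median summit lay 48 bp, 26.5 bp, 0 bp and 78.5 bp downstream of the nearest start in replicates 1 to 4. The lower quartiles were -101, -104.25, -87.25 and -77 bp and the upper quartiles 157, 136.75, 94 and 149 bp. Of the 459 regions on a window, 432 held a protein-coding start. In each case it was a start of a gene whose body they lay in, which the 1000 bp rule fixes. A lncRNA start was held by 113, of which 86 held both kinds.

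**Figure D2:**
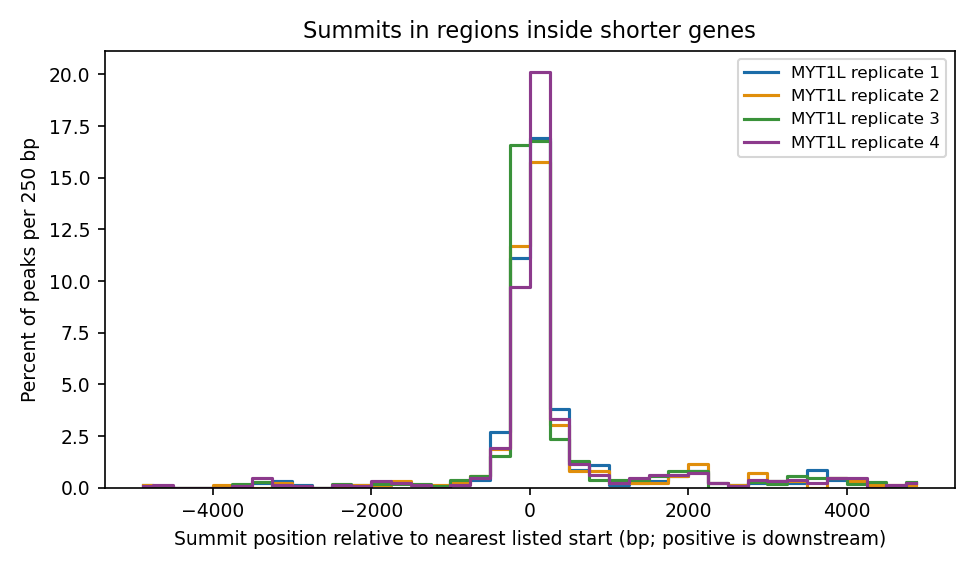
Percent of the peaks of the set (strongest peak per region and library, chromosome 8 left out) per 250 bp of distance from the nearest listed start, 1 line per MYT1L library, positive values downstream. All 4 libraries peak within 250 bp of the start, with 34.6%, 32.4%, 37.4% and 35.1% of peaks within 500 bp.

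The same measure in the whole lists gave the background. Of all summits inside shorter genes, whether or not reproducible, 14.9%, 19.2%, 20.7% and 20.6% lay within 500 bp of a listed start in MYT1L replicates 1 to 4, while 0.836% of the eligible sequence does. In the control lists the share was 4.71% (4 of 85 summits, 95% Wilson interval 1.85% to 11.5%) in IgG replicate 1 and 24.5% (23 of 94, 16.9% to 34.0%) in IgG replicate 2. The MYT1L mean was 18.8% ± 2.70 (SD, n = 4) and the IgG mean 14.6% ± 14.0 (SD, n = 2), a difference of 4.25 points (two-sided exact permutation p = 0.667, where 0.133 is the lowest that 4 against 2 can give). The control libraries differed from each other by more than the groups did. Without IgG replicate 1 the difference was -5.63 points, and without IgG replicate 2 it was 14.1 points. With only the 976 strongest peaks of each list, the MYT1L shares were 1.30% (1 of 77 summits), 8.82%, 10.2% and 39.1% (27 of 69). Replicates 1 to 3 were below, and replicate 4 above, their shares in the whole lists. The IgG shares were 4.71% and 24.7%, and the difference was 0.146 points. With a −log10 q of 5 or more the difference was 18.5 points (exact permutation p = 0.133).

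The median region drew on few fragments. By the MACS formulas, fold and p fix the number of fragments at the summit and the background, and whole numbers recovered both for at least 99.6% of the strongest peaks in every class and library. The median summit of the set held 16, 10, 13 and 20 fragments in MYT1L replicates 1 to 4, over a median background of 1.94, 0.795, 1.57 and 2.02. The median deposited fold was 5.49, 5.70, 5.33 and 6.35, or 5.72 ± 0.446 (SD, n = 4). Median peak width was 498, 339.5, 372 and 573 bp. Replicate 4 was highest on fragments, fold and width, and replicate 2 lowest on fragments and width.

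Which library a region was missing from followed the size of the lists. All 4 libraries had a peak at 557 regions (40.4%, against 45.4% of all 11091 reproducible regions without IgG peak), and 823 regions had peaks in 3. Replicate 2, with 12310 peaks in its list, lacked 484 of these 823 (58.8%), and replicate 3, with 18966, lacked 235 (28.6%). Replicates 1 and 4, with 27926 and 30086, lacked 71 and 33. Support by library number is what the rule used, so its relation to starts is a description. Of regions in the same location without an IgG peak, 4.74% of the 7129 in 1 library lay on a listed start, 16.2% in 2, 30.1% in 3 and 41.8% of the 531 in all 4 (chromosome 8 left out). Median region width rose over the same steps from 257 to 474, 708 and 843 bp, and a wider region meets a window more easily.

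Regions on a start had a higher median fold than the others of the set in every library, by most in replicate 4. Their median fold was 5.55, 5.84, 5.77 and 8.31 in replicates 1 to 4, against 5.46, 5.63, 5.04 and 5.70 for the 859 regions with no listed start. In log2 the differences were 0.03, 0.05, 0.19 and 0.54, all positive, with a mean of 0.20 ± 0.24 (SD, n = 4; two-sided exact sign-flip permutation p = 0.125, the lowest that 4 libraries can give). In replicate 4 the median summit on a start held 30 fragments over a background of 2.56, and elsewhere 14 over 1.61. In replicate 1 both kinds had a median of 15 fragments. Without replicate 4, and with 2 of 3 libraries required, the mean difference was 0.13. It fell to 0.08 when each MYT1L list was held to its 12310 top peaks.

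**Figure D3:**
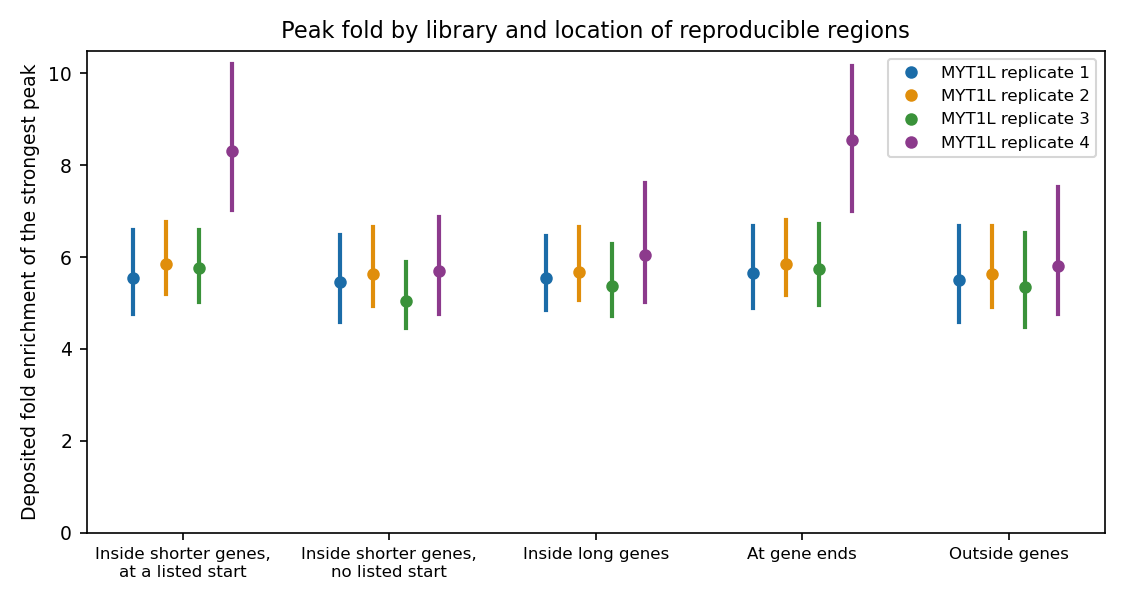
Deposited fold of the strongest peak per region in each MYT1L library (points, medians; bars, quartiles), by location of the reproducible regions; chromosome 8 is left out of the 2 groups split by listed starts. In replicate 4 the medians at starts inside shorter genes (8.31) and at gene ends (8.54) stand above 5.70 for regions inside shorter genes without a start; in replicate 1 the same medians are 5.55, 5.66 and 5.46.

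Compared with regions elsewhere, the set had a lower fold than regions at gene ends in 4 of 4 libraries and a fold close to that inside long genes; none of the differences passed a test. Differences were taken as medians of log2 values within each library, and 6 comparisons were adjusted together. Against gene ends, fold differed by -0.04, -0.04, -0.11 and -0.43 in replicates 1 to 4, with a mean of -0.15 ± 0.19 (SD, n = 4; exact sign-flip permutation test, two-sided, p = 0.125, Benjamini-Hochberg adjusted p = 0.375). It was -0.10 without replicate 4, -0.25 without replicate 2 and -0.04 with equal numbers of top peaks. Peak width against gene ends differed by a mean of -0.17 ± 0.23 (exact permutation p = 0.250, adjusted p = 0.375), and was lower in 3 of 4 libraries. Against regions inside long genes, fold differed by 0.01 ± 0.04 (exact permutation p = 0.875, adjusted p = 0.875), a value within the spread between libraries. Width against long genes differed by 0.06 ± 0.07 (exact permutation p = 0.250, adjusted p = 0.375). Against regions outside genes, width was higher in 4 of 4 libraries, by 0.22 ± 0.18 (exact permutation p = 0.125, adjusted p = 0.375), and fold differed by 0.03 ± 0.06 (exact permutation p = 0.5, adjusted p = 0.6). With 4 libraries no such test can go below 0.125, so none could pass 0.05.

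The share of regions on a listed start is partly fixed by the locations themselves, since protein-coding starts outside genes number 0 and most lie at gene ends. It was 34.8% inside shorter genes, 26.3% inside long genes, 83.3% at gene ends and 7.46% outside protein-coding genes, against 57.9% of all reproducible regions without IgG peak. Per length of eligible gene body, shorter genes held 2.16 regions per Mb (1380 over 639 Mb) and long genes 1.09 (636 over 583 Mb).

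Inside shorter genes, regions were denser near gene ends. Midpoints from 1 to 2 kb of the nearest protein-coding gene end gave 3.24 regions per Mb, and the density was 2.51 from 2 to 5 kb, 2.30 from 5 to 10 kb, 2.18 from 10 to 20 kb, 1.88 from 20 to 50 kb and 1.70 from 50 to 100 kb. Up to 5 kb the density was 2.72 per Mb, 1.34 times the 2.03 per Mb beyond (95% exact binomial interval 1.18 to 1.52, counting error only). For midpoints from 2 to 5 kb, set against the same deeper sequence, the ratio was 1.24 (1.06 to 1.43). When regions with an edge within 2000 bp of a gene end were left out, it was 1.04. Regions were filtered by their edge and sequence was counted by midpoint, which lowers the density just past the limit, here and in the first bin. In the distance bins above, regions on no listed start, chromosome 8 included, gave 2.28, 1.57, 1.34, 1.37, 1.41 and 1.26 per Mb. Regions on a listed start gave 0.96, 0.94, 0.96, 0.81, 0.47 and 0.44 per Mb. Beyond 5 kb the density thus fell mainly among regions on a start. The density of listed starts themselves by distance was not computed. The median distance to the nearest end was 12137.5 bp and the largest 94257 bp.

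**Figure D4:**
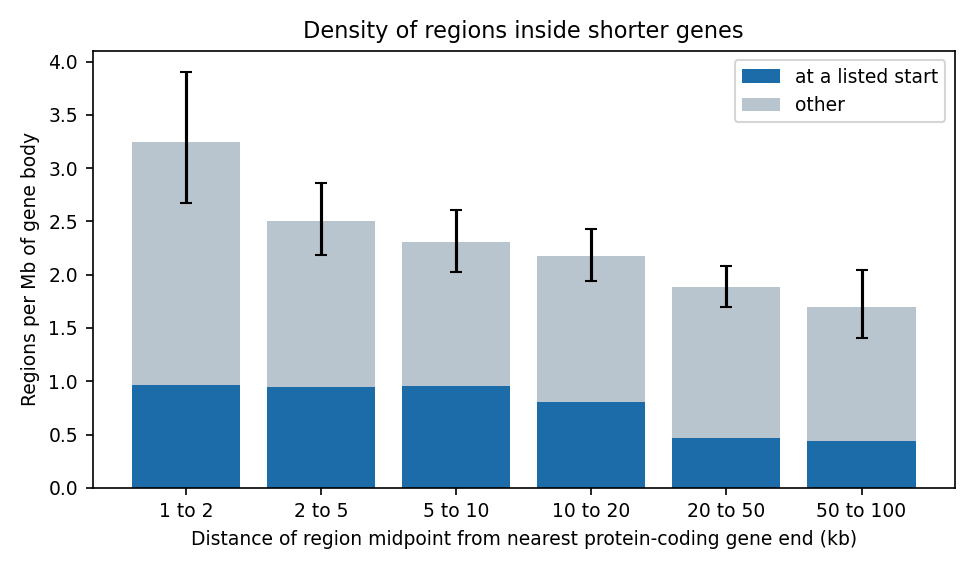
Regions per Mb of eligible gene body by distance of the midpoint from the nearest protein-coding gene end; bars start at 0, error bars are 95% Poisson intervals of the total, and the 62 regions on chromosome 8 count as other. Total density falls from 3.24 per Mb at 1 to 2 kb to 1.70 per Mb at 50 to 100 kb.

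Strand, taken from the start table, placed 1118 regions with 1 host gene along their gene. Of those on a start, 37.6% lay in the first of 5 equal segments from the 5′ end and 3.85% in the last, with a median at 29.4% of gene length. Such regions can lie only where internal starts are listed. Positions of all listed internal starts were not counted, so a lean beyond theirs was not tested. Regions without a listed start were centred, with a median at 48.8%, 15.5% in the first segment and 13.6% in the last. The outer segments are short of sequence eligible under the 1000 bp rule.

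The 12 regions found in all 4 libraries with the highest mean fold were of both kinds. The strongest lay in RAB11FIP3, an effector of the RAB11 GTPase, on chromosome 16 from 494767 to 495048. Its fold was 12.4, 9.93, 11.6 and 15.1 in replicates 1 to 4. It lay 28.0 kb from the nearest gene end and on no listed start. The second lay in PHRF1, a PHD and RING finger protein, on chromosome 11 from 585219 to 585652, with a fold of 12.7, 11.4, 10.9 and 12.2. The libraries lay close together there, with a mean of 11.8 ± 0.813 (SD, n = 4).

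TCF20, a transcriptional coregulator, followed on chromosome 22 from 42323852 to 42324250. Its fold was 15.6, 8.49, 6.51 and 14.9 in replicates 1 to 4, high in replicates 1 and 4 and low in the other two. CUL4A, a scaffold of ubiquitin ligases, had the most even values of the 12 on chromosome 13 from 113262790 to 113263166, at 9.98, 9.52, 9.49 and 10.5. CEP72, a centrosomal protein gene, had 9.79, 7.99, 8.69 and 11.7 on chromosome 5 from 628459 to 628819. None of these 3 lay on a listed start. These 5 regions without a start were 282, 434, 399, 377 and 361 bp wide, against 760.5 bp for the median of the set.

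Of the regions of this top group on a listed start, all were highest in replicate 4. GCA encodes the calcium-binding protein grancalcin, and its region on chromosome 2 (162343923 to 162344533) gave folds of 10.5, 6.33, 7.80 and 18.3 in replicates 1 to 4. PCNA, the sliding clamp of DNA replication, had 10.1, 7.05, 7.31 and 14.3 on chromosome 20 from 5119276 to 5120259, a region that also held the start of the antisense lncRNA PCNA-AS1. MTHFD2L, a mitochondrial enzyme of folate metabolism, had 7.78, 7.59, 9.26 and 14.0 on chromosome 4 from 74157846 to 74158501. PTBP3, a splicing regulator, had 6.66, 7.53, 10.01 and 13.7 on chromosome 9 from 112332857 to 112334111. The region in LOC124905564 at the end of chromosome 1 (28975 to 29843) held the start of the lncRNA MIR1302-2HG and had 8.16, 8.29, 8.72 and 13.1. These are the regions whose CpG-rich sequences are shown above, apart from the last. The 2 remaining regions of the 12 lay on chromosome 8, in ARHGAP39 (11.5, 15.7, 6.55 and 6.73), which was highest in replicate 2, and in TRIQK (10.6, 5.98, 7.99 and 13.7). The regions in RAB11FIP3, PHRF1, CEP72 and LOC124905564 began at bases 494767, 585219, 628459 and 28975, near the first base of their chromosome. Distances to the far chromosome ends were not computed. Beyond the IgG peaks, no list of regions to exclude was applied here, and a role of this placement was not tested.

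**Figure D5:**
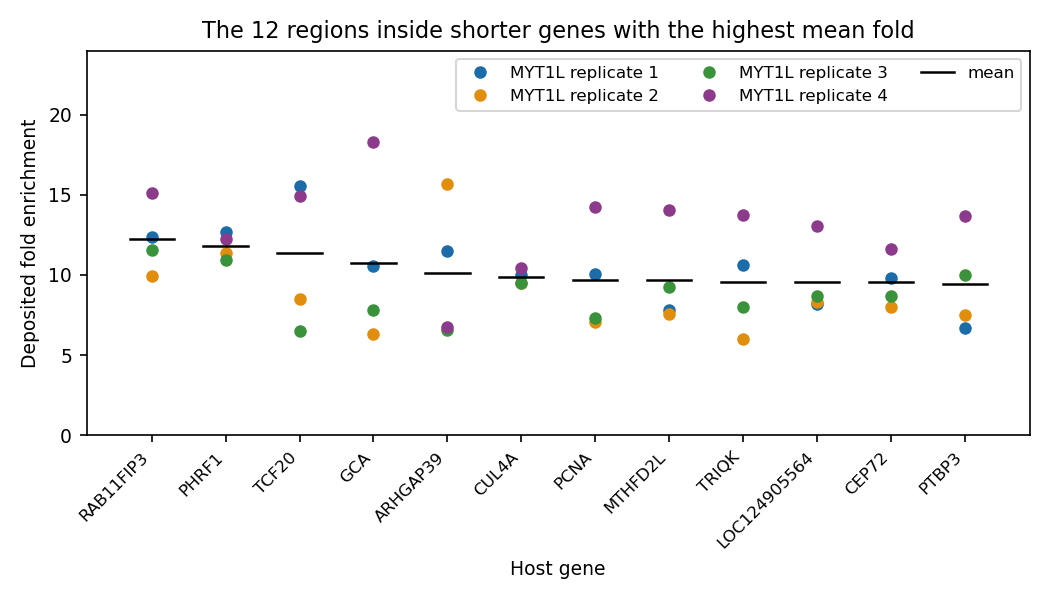
Deposited fold in each MYT1L library (points) and mean (line) for the 12 regions found in all 4 libraries with the highest mean fold, labelled by host gene. PHRF1 and CUL4A have the tightest points, and replicate 4 is far above the others at GCA (18.3), PCNA (14.3) and MTHFD2L (14.0).

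Most host genes held a single region. The 1380 regions lay in 1269 genes, 7.30% of the 17377 protein-coding genes between 2 and 200 kb. Of these genes, 1152 held 1 region, 94 held 2 and 23 held 3 or more. The share rose with gene length, from 1.60% of genes of 2 to 10 kb to 3.82%, 7.11%, 12.5% and 20.8% of genes of 10 to 25, 25 to 50, 50 to 100 and 100 to 200 kb. A single host was overlapped by 1347 regions, 31 had 2 hosts, 1 had 3 and 1 had 17, because genes overlap there.

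TTC34 on chromosome 1 stood apart with 13 regions within 108 kb. None lay on a listed start. Their peaks had a median fold of 2.62 (range 1.89 to 7.29) with a median of 62 fragments at the summit over a background of 21.0, against set medians of 10 to 20 fragments and of 0.795 to 2.02 for background. The gene body also held 8 and 4 peaks of IgG replicates 1 and 2 and 6 reproducible regions that overlapped an IgG peak. Of the 8 regions in the whole set with a mean fold under 3, 7 were in TTC34. High background and IgG peaks stand beside this cluster, and their part in it was not tested.

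LMF1, a lipase maturation factor on chromosome 16, and ARHGAP39 on chromosome 8 held 5 regions each. In LMF1, 4 of the 5 were found in all 4 libraries, and the median fold was 7.14. The body also held 1 and 3 IgG peaks in replicates 1 and 2, and 2 reproducible regions that overlapped an IgG peak. ARHGAP39 had a median fold of 6.26 and no IgG peak. AP3S2, a subunit of an adaptor protein complex on chromosome 15, held 4 regions within 15.4 kb. They are also counted for the readthrough gene ARPIN-AP3S2 that spans it. ERICH1 on chromosome 8 held 4, with a median fold of 4.58. Its body also held 1 peak of IgG replicate 2 and 1 reproducible region that overlapped an IgG peak. The longer genes RPH3AL, RMDN2 and PCDHGA1 also held 4 each.

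Lists of neural genes, pathways and other functions were counted for host genes. Shares are set beside the 7.30% of all genes and beside the mean share of the length classes of each list's genes (by length), with no test. Where a gene holds several regions, values are those of the one with the highest mean fold, and up to 3 genes per list are given. Of 31 ventral forebrain and interneuron genes, 3 held a region (9.68%, 4.53% by length). They were NKX2-1, the regulator of the medial ganglionic eminence (fold 4.00, 3.85 and 4.17 in replicates 1, 2 and 4), SP8, a regulator of interneurons of the lateral and caudal eminences (5.92, 4.25 and 3.97 in replicates 1, 3 and 4), and TAC1, a neuropeptide precursor (5.63, 6.29 and 5.52 in replicates 2, 3 and 4). Each lay within 2 kb of a gene end, at 1.25, 1.93 and 1.19 kb, and none was found in all 4 libraries. NKX2-1 and SP8 are only 3.84 and 4.61 kb long, so a region inside them lies near an end by gene length.

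Neuronal transcription factor genes had 4 of 24 (16.7%, 8.16% by length), BCL11A, KLF7, TBR1 and ZEB2. BCL11A had a fold of 7.87, 4.82 and 7.54 in replicates 1, 2 and 4, ZEB2 4.45, 5.27 and 6.44 in replicates 1, 3 and 4, and KLF7 5.07, 5.58 and 5.38 in replicates 1, 2 and 4, on an internal start of KLF7. Synaptic transmission genes had 2 of 25 (8%, 9.85% by length). The region in the glutamate receptor gene GRIA2 had 4.73, 5.86 and 6.84 in replicates 2 to 4. That in DLG4, which encodes the postsynaptic scaffold PSD-95, had 3.87, 4.15 and 6.61 in replicates 1, 3 and 4 and lay on an internal start. Of 21 neuronal cytoskeleton and axon guidance genes, 0 held a region (11.2% by length).

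Wnt and Hippo pathway genes had 1 of 26 (3.85%, 10.4% by length), the Wnt coreceptor LRP5, at 4.41, 4.58 and 4.03 in replicates 1, 3 and 4. It lay on an internal start.

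Chromatin regulator genes had 4 of 35 (11.4%, 11.9% by length), the remodeller gene CHD8 and the corepressor genes NCOR1, RCOR1 and SIN3A. SIN3 proteins are known partners of MYT1L in repression. RCOR1 had a fold of 8.52, 10.7, 6.93 and 7.59 over a region of 1757 bp, and CHD8 4.99, 6.33, 5.34 and 8.11 on an internal start. NCOR1 had 5.04, 5.68 and 5.81 in replicates 1, 3 and 4. Cell cycle genes had 5 of 31 (16.1%, 6.001% by length), namely CCND1, CCND3, CDKN2A, PCNA and RBL1. The region in CDKN2A, which encodes cell cycle inhibitors from alternative first exons, lay on an internal start and had 6.41, 6.52, 4.88 and 6.87. RBL1, a relative of RB1, had 5.90, 7.18 and 4.77 in replicates 1, 3 and 4.

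RNA-binding and splicing genes had 4 of 30 (13.3%, 5.48% by length), CELF1, ELAVL3, PTBP2 and SRSF11. SRSF11, a splicing factor, had a fold of 6.41, 4.93, 7.31 and 15.7 on an internal start, again highest in replicate 4. CELF1 had 6.12, 6.37, 6.39 and 9.58 on an internal start. PTBP2, the neural relative of PTBP1, had 5.04, 4.88 and 6.93 in replicates 1, 3 and 4. Pluripotency genes had 2 of 22 (9.09%, 5.05% by length). LIN28B, which blocks maturation of let-7 microRNAs, had 8.92, 7.90, 7.58 and 12.5 on the internal start whose sequence is shown, and TERT, the telomerase reverse transcriptase, 5.98, 8.38 and 5.69 in replicates 1, 2 and 4. Ribosomal protein genes had 1 of 48 (2.08%, 1.92% by length), RPS3, and liver and muscle genes 0 of 32 (5.40% by length).

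Zinc finger genes of the ZNF series were looked at after their values were seen. A region lay in 32 of 249 on chromosome 19 (12.9%) and in 29 of 255 elsewhere (11.4%), with median lengths of 23.2 and 23.6 kb. Of the other 1129 genes of this size on chromosome 19, 71 (6.29%) held one, with a median length of 13.5 kb. On chromosome 19, 22 of the 33 regions in ZNF genes lay on a listed start, against 10 of 29 elsewhere (chromosome 8 left out) and 22 of 74 in the other genes of chromosome 19.

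Noncoding genes lie inside many of these bodies, and 225 regions were within 1000 bp of an end of one. A lncRNA gene end was that near to 173, a pseudogene end to 29 and a miRNA gene end to 16. The strongest of these regions lay in TRIM61, over the start of the lncRNA FAM218A, with a fold of 7.78, 7.80 and 14.6 in replicates 1, 3 and 4. CUL4A and PCNA, with values given above, also ranked among the 6 strongest. Of the others, RABGAP1 (8.79, 6.43 and 14.5) and GRB2 (8.22, 4.85 and 16.2), an adaptor of receptor tyrosine kinases, had peaks in the same 3 replicates, and RAP1A had 7.49, 7.64 and 13.8 in replicates 2 to 4. In TRIM61, RABGAP1, GRB2 and RAP1A replicate 4 had the highest fold. Without counts of the noncoding transcripts, nothing is known here of their expression.

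The region in CUL4A covers the miRNA gene MIR8075, and 7 others cover a mature miRNA. The sequences of the 4 found in all 4 libraries are given with the seed, bases 2 to 8, in capitals, from RefSeq, GRCh38.p14.
hsa-miR-8075, chr13:113262966-113262989, + strand: uGCUGAUGgcagaugucgggucug
hsa-miR-6090, chr11:128522430-128522448, + strand: gGGGAGCGaggggcggggc
hsa-miR-658, chr22:37844287-37844311, - strand: gGCGGAGGgaaguagguccguuggu
hsa-miR-4479, chr9:136886777-136886798, + strand: cGCGCGGCcgugcucggagcag
No seed is shared among them. The region over hsa-miR-6090, in the transcription factor gene ETS1, had a fold of 6.29, 4.77, 9.06 and 10.2. That over hsa-miR-658, in ANKRD54, had 5.32, 5.32, 7.85 and 11.2, and that over hsa-miR-4479, in TRAF2, an adaptor of TNF receptors, 4.53, 6.21, 6.15 and 10.05. These 3 were highest in replicate 4. A peak over a miRNA gene says where the region lies and not that the miRNA is made.

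The widest regions were in AHRR, the aryl hydrocarbon receptor repressor (2567 bp, fold 5.79, 4.93, 4.00 and 4.45), SDHA, a subunit of succinate dehydrogenase (2235 bp, 3 libraries), and GALNT9, a glycosyltransferase gene (2188 bp, 3 libraries). The regions nearest to the limits of the rule had these values. The longest hosts inside it were RHBDD1, ATP11A and RBM20, at 199, 197 and 196 kb, with a mean fold of 7.61, 5.81 and 4.87. Just beyond 200 kb were PAX5 at 201 kb (5.20), TSHZ3 at 201.002 kb (4.98) and CCDC30 at 201.084 kb (7.21). The regions nearest to a gene end were in EPPK1, SLC27A1 and ZNF555, at 1001, 1002 and 1004 bp (3.795, 7.13 and 4.88). Just within 1000 bp were those of HSPA2 and TRIL at 997 bp (4.78 and 4.55) and LOC124900193 at 985 bp (8.48).

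As the control, the location was measured in all lists. Summits inside shorter genes and over 1000 bp from gene ends took 19.5%, 18.2%, 17.1% and 19.7% of each MYT1L list, in replicate order. In the IgG lists they took 8.81% (86 of 976, 95% Wilson interval 7.19% to 10.8%) and 10.1% (101 of 998, 8.40% to 12.1%), and the groups did not overlap. MYT1L averaged 18.6% ± 1.198 (SD, n = 4) and IgG 9.47% ± 0.925 (SD, n = 2), which is 9.16 points less (two-sided exact permutation p = 0.133 over 15 splits, the lowest possible). The location spans 639 Mb. Its share of the genome was not computed, so whether either group departs from even placement was not tested. The difference kept its direction in 11 of 12 alternatives, with 8.96 points at a −log10 q of 5 or more (exact permutation p = 0.133). The lists differ in size, and the difference did not hold at equal size. That size was 976 peaks, which kept all of IgG replicate 1 and cut MYT1L lists of 12310 to 30086 peaks. With the 976 strongest peaks of each list, the MYT1L shares were 8.20%, 10.9%, 5.12% and 7.17% and the IgG shares 8.81% and 10.2%, a difference of -1.69 points (exact permutation p = 0.533). Regions with an IgG peak on them were left out by the rule. Of those kept, 3 lay within 1 kb of an IgG peak, 31 (2.25%) within 10 kb and 207 (15%) within 100 kb.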

How the data were processed

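The 6 deposited peak lists have no header. Their sequence names are those of hg38, and per the submitters' processing notes MACS2 and hg38 were used; the aligner, threshold and control are not given in the sources used here. Each peak carries the authors' fold enrichment over background (a ratio), −log10 p and −log10 q, a deposited score and a summit. The fold comparisons within a library rest on these deposited values. Total depth is unknown; summit fragment numbers follow from the deposited fold and −log10 p by the MACS formulas within 0.0002. Intervals cover counting error only.

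Peaks were joined with Python 3.11.15 and compared with bedtools 2.31.1 (0 of 49028 regions differed); exact tests used SciPy 1.17.1. Genes and starts are from RefSeq GRCh38.p14 (20033 protein-coding genes, 15841 with a listed start); a region with no listed start may hold an unlisted one. Classification and fragment recovery were tested on simulated data (3000 cases each, 0 wrong classes, 100% recovered). Members, gene lists and tests were chosen with earlier results of these data known. Named regions were the 12 with the highest mean fold in 4 libraries, hosts of most regions, up to 3 genes per list, those nearest the limits, at noncoding ends, and the widest. Analyses of starts, CpG, motifs, miRNAs and ZNF genes were added after the data were seen. Titles give the groups and replicate numbers; names of single peaks in the MYT1L lists bear numbers 1 higher. The result of 1 gene list is not reported here. Alternatives are in the closing section.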

Additional observations from a re-analysis of the deposited data

Results flagged for a closer look

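Each set of 4 MYT1L values was checked for a library far from the others, by the gap to its neighbour over the whole range. Of 27 sets, 1 passed Dixon's 95% limit. At the region in LOC124905564, replicate 4 had a fold of 13.1 against 8.16 to 8.72 in the other libraries, a gap of 0.886 of the range. Chance alone flags about 1 in 20 sets.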

How the results depend on the processing

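Limits: 4 libraries and 2 controls cannot give an exact p below 0.05, so the tests say nothing about stability. Results on starts were added after the data were seen. Equal numbers of top peaks means 12310 per MYT1L list, or 976 per list where all 6 lists are named.
The number of regions, 1380, was 623 at a −log10 q of 5 or more, 557 with all 4 libraries, 2902 with at least 2, 893 in genes shorter than 100 kb and 641 with equal numbers of top peaks. Host genes, 1269, numbered 591, 523, 2440 and 608 under all of these but the gene length. Leaving out 1 library gave 1415 to 2571 regions and 1291 to 2204 genes; the highest were without MYT1L replicate 2, and 2339 and 2017 without replicate 3, where 2 of 3 libraries sufficed. The density ratio, 1.34, was 1.16 with all 4 libraries, 1.64 with at least 2, 1.04 over 2000 bp from gene ends, 1.24 with midpoints 2 to 5 kb from an end (added after the data were seen) and 1.32 to 1.62 without 1 library. The share on a listed start, 34.8%, was 46.7% at a −log10 q of 5 or more, 41.8% with all 4, 25.03% with at least 2, 51.5% with equal numbers of top peaks and 26.8% to 35.2% without 1 library. Fewer peaks or another library number were tested in these settings; further causes were not tested.
The log2 fold difference from regions inside long genes, 0.01, changed sign in 9 of 15 alternatives: -0.0055 with a −log10 q of at least 5, -0.0015 with all 4 libraries, -0.018 with at least 2, -0.0046 in genes shorter than 100 kb, -0.021 with equal numbers of top peaks, and -0.029 to 0.0090 without 1 library. The width difference from long genes, 0.06, became -0.041, -0.042 and -0.049 with a −log10 q of at least 5, all 4 libraries and equal numbers of top peaks. The fold difference from regions outside genes became -0.0074 with IgG-overlapping regions kept. The differences from gene ends kept their direction in all 15 alternatives, as did the width difference from regions outside genes and the fold difference between regions on a start and others, which fell from 0.20 to 0.08 with equal numbers of top peaks.
The share inside shorter genes, 9.16 points higher in MYT1L, was -1.69 with equal numbers of top peaks in all 6 lists and 8.50 to 9.81 without 1 library. It was 8.96 at a −log10 q of 5 or more and 8.43 with whole peaks in place of summits. Over 2000 bp from gene ends it was 7.10, and in genes shorter than 100 kb 6.65. The share of summits at starts ranged from -5.63 to 14.1 points without 1 library and was 18.5 at a −log10 q of 5 or more. With the replicate block, pairing numbers 1 and 2, the 2 differences were 9.37 and 2.46 points; the numbers are not stated to pair libraries.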
